A study of Mus musculus with 17 samples.

Results

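The 39 genes described here are a set of type I interferon response genes of the mouse: transcription factors of the pathway, sensors of foreign nucleic acid and the antiviral effectors they induce. They were chosen by name, with earlier results of these data known, so counts of members that differ are a description of the list. All 39 were found among the 15632 genes listed in at least 1 hepatocyte file. In the liver files, which hold 49315 genes, 38 were found by name and Ifi208 was found under its synonym Pydc3.

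RNA sequencing covered 2 experiments on enzymes of the sphingomyelin synthase family. In the first, 4 liver libraries labelled SMSrKO, a knockout of Smsr (Samd8), were set against 4 labelled WT. All 8 came from mice given a high-fat diet and fructose in the drinking water for 16 weeks. In the second, hepatocytes were isolated by collagenase from mice of 2 months: 3 libraries labelled tKO (Sms1/Sms2/Smsr), 3 labelled dKO (Sms1/Sms2) and 3 labelled WT. The labels give the knockouts by genotype and name no strain, Cre or promoter. They give 3 mice a group for hepatocytes and do not say that the liver libraries came from separate animals, and a p-value here speaks of the spread among libraries. For the liver libraries, the protocol on RNA extraction speaks of sWAT and the tissue label of liver. Summed hepatocyte markers stood at 82973 to 93874 TPM (transcript level scaled for gene length and library size) in SMSrKO and 64565 to 72502 in WT.

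Type I interferons bind a receptor made of the Ifnar1 and Ifnar2 chains. The kinases Jak1 and Tyk2 then start a signal that brings Stat2 and Irf9 into a complex that binds the interferon-stimulated response element in the promoters of induced genes. Many of the induced proteins bind viral RNA or DNA, block viral growth or raise sensing, and a few restrain the pathway again. Hepatocytes carry the receptor and respond to interferon, and Kupffer cells, endothelium and leukocytes of the liver do so too.

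Liver libraries held 24391627 to 47351126 counts each, and hepatocyte libraries 9221488 to 9665309 expected counts. Libraries of a group varied more in liver, with a common biological coefficient of variation of 20.3%, against 3.52% for hepatocytes. In liver, WT 1 stood apart. Its counts differed from those of the other 3 WT libraries with a chi-square of 168 to 185 per degree of freedom, against 26.1 to 56.0 among those 3 and 23.9 to 46.0 among SMSrKO libraries. Pairs of hepatocyte libraries within a group had only 1.56 to 2.76, little above sampling noise. The small p-values in hepatocytes rest on this small spread. Of the targeted genes, Samd8 RNA averaged 15.3 TPM in SMSrKO and 12.6 TPM in WT liver, and 14.7, 11.7 and 9.95 FPKM (fragments scaled for gene length and library size) in tKO, dKO and WT hepatocytes, so that it was not lower under these labels. In hepatocytes Samd8 was higher than WT by 0.53 log2 in tKO and by 0.23 in dKO (edgeR adjusted p under 0.05 in each). It was also higher in tKO than in dKO, by 0.30 log2 at the same threshold. Sgms1 (Sms1) averaged 18.0 FPKM in tKO, 27.5 in dKO and 14.9 in WT hepatocytes and was higher in tKO by 0.24 log2 (edgeR adjusted p = 0.00178) and in dKO by 0.86 (5.57e-21). Sgms2 (Sms2) averaged 26.4, 26.0 and 31.6 FPKM and was lower in both knockouts, by −0.29 log2 each (edgeR adjusted p = 3.83e-06 in tKO and 6.22e-06 in dKO). These are totals over each gene, exons were not examined, and the group names are those on the labels. Why Samd8 and Sgms1 RNA was not lower was not tested.

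In hepatocytes, the question was what the loss of 2 or of all 3 enzymes does to these genes. Members stood higher than WT in both kinds of library, those labelled tKO and those labelled dKO. The 39 genes together summed to 2824 to 2838 FPKM in tKO, 2448 to 2514 FPKM in dKO and 1121 to 1227 FPKM in WT libraries. Each gene was tested over all 11471 genes with edgeR's quasi-likelihood test, and called at an adjusted p under 0.05. Of 38 members tested, 38 rose in dKO, with a median log2 fold change of 0.98 against −0.01 over all genes. The background was high: 24.0% of all genes were called higher in dKO, and 44.0% were called in either direction. In tKO, 38 of 38 rose, with a median of 1.15 against −0.0035 over all genes and a background of 25.6% called higher and 47.4% called in either direction. These 2 comparisons share the WT libraries. Ifi205 was below the count minimum and was not tested.

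At least 2-fold higher and called were 19 of 38 members in dKO, against 6.40% of all genes, and 23 of 38 in tKO, against 6.06%. Values did not overlap between dKO and WT for all 38 tested members, against 27.1% of genes that lay wholly above WT. Between tKO and WT the same held for 37 of 38, against 30.4%, with Ifi208 the exception. A total of 5 members (Ifi203, Ifi204, Ifi208, Oas1g and Oas2) passed the filter on low counts only through the knockouts and so had to differ. All 5 are among the 19 and the 23 members at least 2-fold higher, and among the 38 without overlap in dKO. Of the 33 members that met the count minimum in all 3 WT libraries, 33 rose in dKO with a median of 0.86, where 21.5% of 10753 such genes did. In tKO 33 of 33 rose with a median of 1.09, where 23.5% did.

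**Figure D1:**
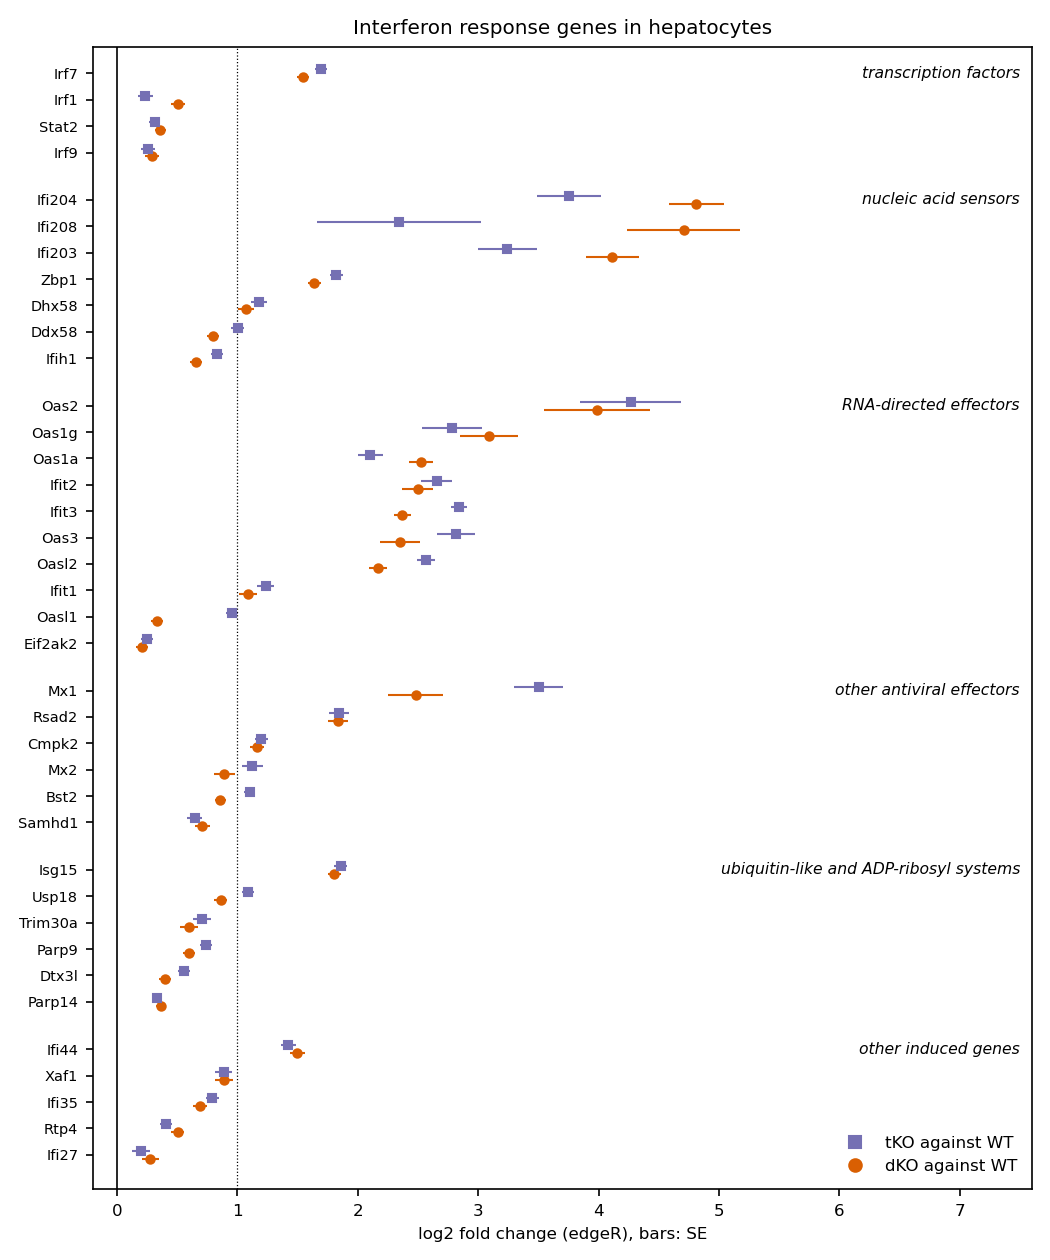
Log2 fold changes (x axis) of 38 interferon response genes (y axis, by role) for tKO against WT (squares) and dKO against WT (circles), with SE bars from edgeR; the dotted line is 2-fold. All points lie right of 0, from 0.20 for Ifi27 in tKO to 4.81 for Ifi204 in dKO.

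The 4 transcription factors had the lowest median of the 6 roles, 0.43 log2 in dKO and 0.29 in tKO. Irf7, which drives interferon genes and is itself induced, had 146.8, 153.7 and 150.7 FPKM in tKO, 133.1, 136.2 and 130.3 FPKM in dKO, and 41.8, 47.0 and 47.6 FPKM in WT. The groups were far apart, and Irf7 was higher by 1.55 ± 0.0492 log2 (SE) in dKO (edgeR adjusted p = 1.77e-43) and by 1.70 ± 0.0487 in tKO (7.49e-47). Irf9, the DNA-binding part of the complex with Stat2, averaged 46.8 ± 0.610 FPKM in tKO, 47.3 ± 1.93 in dKO and 38.1 ± 3.84 in WT (SD, n = 3 each). Its rise was 0.29 ± 0.0552 log2 in dKO (edgeR adjusted p = 7.27e-06) and 0.26 ± 0.0551 in tKO (5.35e-05). Stat2 rose by 0.36 and 0.31 log2 in dKO and tKO, and Irf1, a factor that also serves the response to interferon gamma, by 0.51 and 0.23.

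Sensors fell into a pair of groups by level. Zbp1, which binds nucleic acid in the Z form and can start necroptosis, had 130.9, 132.5 and 148.1 FPKM in tKO, 114.8, 126.7 and 122.2 in dKO, and 35.4, 40.6 and 39.7 in WT. It rose by 1.64 ± 0.0544 log2 in dKO (edgeR adjusted p = 2.76e-42) and 1.82 ± 0.0537 in tKO (4.04e-46). The RNA helicases Ddx58 (RIG-I), Ifih1 (MDA5) and Dhx58 (LGP2) stood at 15.6 to 19.7 FPKM in WT and rose by 0.66 to 1.08 log2 in dKO and by 0.83 to 1.18 in tKO. The PYHIN family genes of the Ifi200 cluster, some of which encode DNA sensors, stood at 0 to 0.36 FPKM in WT libraries. Ifi204 had 3.52, 3.92 and 3.38 FPKM in tKO, 7.54, 7.28 and 7.38 in dKO, and 0.20, 0.36 and 0.19 in WT. It rose by 4.81 ± 0.229 log2 in dKO (edgeR adjusted p = 7.75e-32) and 3.76 ± 0.263 in tKO (6.26e-22), against a WT level that is itself near 0.

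Ifi203 rose by 4.11 ± 0.219 log2 in dKO (edgeR adjusted p = 1.03e-28) and 3.24 ± 0.245 in tKO (3.4e-20). Like Ifi204 and Ifi208, it passed the filter only through the knockouts and so had to differ. Ifi208 rests on few counts: 10, 10 and 3 in tKO, 35, 39 and 41 in dKO, and 3, 0 and 1 in WT. Its rise of 4.71 ± 0.471 log2 in dKO moved to 5.94 without WT 1, and that of 2.34 ± 0.682 in tKO moved to 3.58. Ifi205, not tested, had 0.63, 0.23 and 0.09 FPKM in tKO, 1.01, 0.71 and 0.31 in dKO, and 0.07, 0.17 and 0 in WT. These genes resemble each other in sequence, and Ifi203, Ifi204 and Ifi205 had fractional counts in some libraries, so the split of reads between copies is uncertain. The same holds for 11 other members with fractional counts, among them Ifit1, Ifit3, Oas1a, Oas1g, Oas3, Eif2ak2, Mx1, Mx2, Dtx3l and Trim30a in 8 or 9 of the 9 libraries.

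Effectors that act on RNA had the highest median of the 6 roles, 2.36 log2 in dKO and 2.61 in tKO, over 10 members, of which Oas1g and Oas2 passed the filter only through the knockouts. Oasl2, of the family of oligoadenylate synthetases, had 33.7, 39.6 and 36.3 FPKM in tKO, 26.5, 28.7 and 26.6 in dKO, and 6.32, 5.81 and 6.03 in WT. Its rise was 2.17 ± 0.0753 log2 in dKO (edgeR adjusted p = 7.17e-41) and 2.57 ± 0.0724 in tKO (2.17e-47). Oas1a, Oas1g, Oas2 and Oas3, whose products make the oligoadenylates that activate RNase L, rose by 2.35 to 3.99 log2 in dKO and 2.11 to 4.27 in tKO. Oas2 had only 1 to 4 counts in WT, and without WT 1 its rise moved to 4.91 in dKO and 5.19 in tKO.

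Ifit proteins bind viral RNA and block its translation. Ifit3 had 296.2, 284.4 and 269.8 FPKM in tKO, 195.1, 204.7 and 203.1 in dKO, and 32.2, 41.7 and 42.3 in WT. It rose by 2.37 ± 0.0688 log2 in dKO (edgeR adjusted p = 1.82e-16) and 2.84 ± 0.068 in tKO (5.61e-18). Ifit2 rose by 2.50 and 2.65 and Ifit1 by 1.09 and 1.24 in dKO and tKO. Against these stood Oasl1, which in mouse restrains translation of Irf7 mRNA and was the effector on RNA with the highest WT level, and Eif2ak2, the kinase PKR that stops translation on double-stranded RNA. Oasl1 had 243.5, 266.6 and 257.0 FPKM in tKO, 155.8, 166.7 and 168.0 in dKO, and 114.4, 135.0 and 138.0 in WT, and rose by 0.34 ± 0.0499 log2 in dKO and 0.96 ± 0.0489 in tKO (edgeR adjusted p = 6.41e-07 and 5.9e-19). Eif2ak2 rose by 0.21 ± 0.0512 log2 in dKO and 0.25 ± 0.0508 in tKO (edgeR adjusted p = 0.000408 and 1.99e-05).

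**Figure D2:**
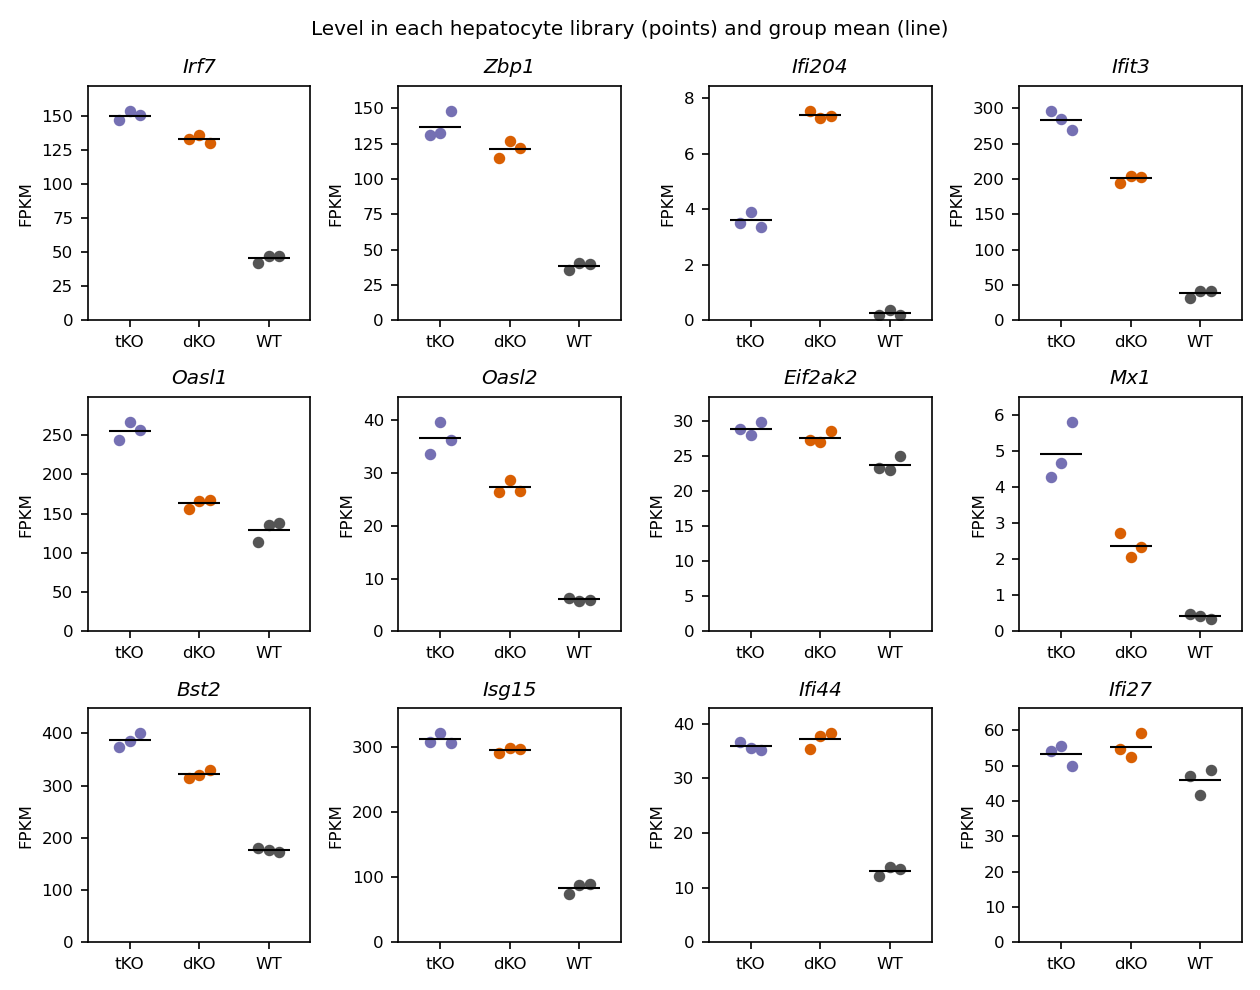
FPKM (y axes, from 0) of 12 members in each hepatocyte library (points), with the group mean (line), for tKO, dKO and WT (x axes). Ifi204 stands highest in dKO and Ifit3, Oasl1, Oasl2, Mx1 and Bst2 highest in tKO, while Ifi27 and Eif2ak2 differ little between groups.

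Among the other antiviral effectors, Bst2 (tetherin), which holds budding virus at the cell surface, had the highest level of any member. It had 373.2, 386.0 and 400.2 FPKM in tKO, 314.5, 319.7 and 330.1 in dKO, and 179.9, 175.8 and 173.6 in WT. The rise was 0.86 ± 0.0443 log2 in dKO (edgeR adjusted p = 1.13e-29) and 1.10 ± 0.0437 in tKO (4.22e-37). Rsad2 (viperin), which makes a chain-terminating nucleotide, and its neighbour Cmpk2, a nucleotide kinase, rose by 1.84 and 1.16 log2 in dKO and by 1.85 and 1.20 in tKO. The GTPase Mx1 had 4.28, 4.68 and 5.81 FPKM in tKO, 2.73, 2.07 and 2.35 in dKO, and 0.48, 0.44 and 0.34 in WT, and rose by 2.48 ± 0.230 and 3.50 ± 0.201 log2 in dKO and tKO (edgeR adjusted p = 8.48e-16 and 6.76e-27). Samhd1, which degrades deoxynucleotides, rose by 0.71 and 0.65.

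Isg15, a ubiquitin-like protein that is linked to other proteins, had 308.2, 321.5 and 306.3 FPKM in tKO, 291.1, 298.6 and 297.1 in dKO, and 74.5, 88.6 and 89.7 in WT. It rose by 1.80 ± 0.0537 log2 in dKO (edgeR adjusted p = 1.39e-45) and 1.86 ± 0.0534 in tKO (7.49e-47). Usp18, which removes Isg15 and restrains the receptor, rose by 0.86 and 1.09. The ubiquitin ligase Dtx3l, its partner Parp9, the ADP-ribosyl transferase Parp14 and Trim30a rose by 0.37 to 0.60 in dKO and 0.33 to 0.74 in tKO. Of the other induced genes, Ifi44 rose by 1.50 and 1.42 log2, the XIAP antagonist Xaf1 by 0.89 and 0.89, Ifi35 by 0.69 and 0.79 and Rtp4 by 0.50 and 0.41, in dKO and tKO. Ifi27 averaged 53.2 ± 2.91 FPKM in tKO, 55.4 ± 3.50 in dKO and 45.9 ± 3.70 in WT (SD, n = 3 each). It rose by 0.28 ± 0.0715 log2 in dKO and 0.20 ± 0.0716 in tKO (edgeR adjusted p = 0.000904 and 0.0158), and the call in tKO was lost without WT 2 (adjusted p = 0.164) or tKO 8 (0.108).

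The 7 members under 1 FPKM in WT, 5 of which passed the filter only through the knockouts, rose by 2.35 to 4.81 log2 in dKO and 2.34 to 4.27 in tKO. The 11 members of 1 to 20 FPKM had medians of 0.89 and 1.13, the 13 of 20 to 50 FPKM 0.60 and 0.74, and the 7 of at least 50 FPKM 0.86 and 1.09 in dKO and tKO, so that above 1 FPKM these medians followed no order of WT level. The common dispersion seen in liver was also put in place of that of the hepatocyte libraries. This used edgeR's likelihood ratio test instead of the quasi-likelihood test. So tested, 26 of the 38 calls remained in dKO and 29 of 38 in tKO. Those lost in both were Dtx3l, Eif2ak2, Ifi27, Irf1, Irf9, Parp14, Rtp4 and Stat2, all among the smaller rises.

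Promoter sequence was read from RefSeq (GRCm38.p6) for the 28 members with an entry, in windows of 250 bases before to 50 after each annotated start. A core of the interferon-stimulated response element (GAAA, any 2 bases, GAAA) on either strand was in a window of 16 of these 28 genes (57.1%), against 1079 of 27025 genes (3.99%). The match lay wholly before the start in 13 of 28 (46.4%), against 3.46% of all genes. A core of the gamma-activated site, TTCNNNGAA, which reads the same on both strands, was in 7 of 28 (25.0%), against 9.55%.

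**Figure D3:**
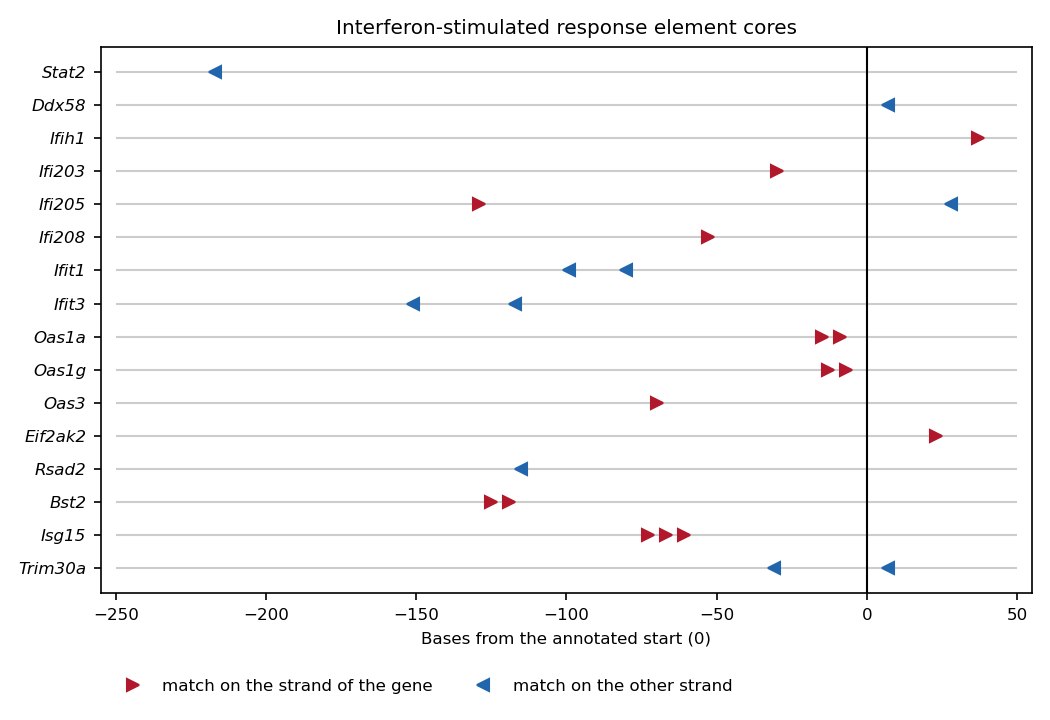
Positions of the core of the interferon-stimulated response element (triangles, red on the strand of the gene and blue on the other) along windows of 250 bases before to 50 after the annotated start (x axis, bases) for the 16 members that hold it (y axis), with the windows of a gene that has several starts laid over each other. Isg15 holds 3 overlapping matches, and Oas1a, Oas1g and Bst2 each a pair.

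Of the 9 members that were at least 2-fold higher in dKO and held the core wholly before a start within 170 bases, the 170 bases are shown for 6, as promoters of strongly raised genes that carry the motif. At most 25 of these bases lie inside the gene as RefSeq or Ensembl draws it. In Ifi203, Ifi208 and Ifit3 more of the stretch lies inside the gene so drawn, and none is shown. They run 5′ to 3′ on the strand of the gene. Capitals mark the core, which reads TTTC, any 2 bases, TTTC where it lies on the other strand, and overlapping matches run together.
Ifit1: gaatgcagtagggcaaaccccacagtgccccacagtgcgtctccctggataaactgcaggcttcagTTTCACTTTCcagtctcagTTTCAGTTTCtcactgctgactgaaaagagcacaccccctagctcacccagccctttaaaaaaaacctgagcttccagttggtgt
Isg15: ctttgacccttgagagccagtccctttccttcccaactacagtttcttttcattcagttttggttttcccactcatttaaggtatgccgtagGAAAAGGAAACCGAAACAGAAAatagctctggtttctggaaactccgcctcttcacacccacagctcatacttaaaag
Oas1a: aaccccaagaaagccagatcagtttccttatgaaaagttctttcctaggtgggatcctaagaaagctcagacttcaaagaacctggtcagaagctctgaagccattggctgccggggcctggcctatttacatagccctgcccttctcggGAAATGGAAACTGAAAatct
Oas1g: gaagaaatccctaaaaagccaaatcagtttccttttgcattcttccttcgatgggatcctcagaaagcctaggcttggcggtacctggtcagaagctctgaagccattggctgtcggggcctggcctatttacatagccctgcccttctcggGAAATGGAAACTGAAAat
Oas3: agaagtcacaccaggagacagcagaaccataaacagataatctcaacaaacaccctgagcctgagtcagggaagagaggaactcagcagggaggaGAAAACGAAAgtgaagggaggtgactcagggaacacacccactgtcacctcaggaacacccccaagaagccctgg
Rsad2: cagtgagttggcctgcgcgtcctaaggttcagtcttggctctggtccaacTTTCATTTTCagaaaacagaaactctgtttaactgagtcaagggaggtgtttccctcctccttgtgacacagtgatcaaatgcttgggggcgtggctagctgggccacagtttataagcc

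On GRCm38.p6 these stretches lie at chr19:34640719-34640888 (plus strand) for Ifit1 and chr4:156200819-156200988 (minus strand) for Isg15. Those of the Oas genes lie at chr5:120907526-120907695 for Oas1a, chr5:120887614-120887783 for Oas1g and chr5:120777660-120777829 for Oas3, all on the minus strand. That of Rsad2 lies at chr12:26456453-26456622 (minus strand). The matches begin 104 and 85 bases before the start in Ifit1, 78, 72 and 66 in Isg15, and 20 and 14 in Oas1a. The longest run shared by 2 of these stretches was 56 bases, between Oas1a and Oas1g, and holds the matches of both. A match is a stretch of letters here, and binding was not measured.

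The comparison of tKO with dKO addressed the added loss of Smsr. Of 38 members tested, 14 were higher and 5 lower in libraries labelled tKO, with a median of 0.10 log2 against 0.00083 over all genes. The background was 14.3% of all genes higher and 15.2% lower, or 29.5% in all. The 14 were Irf7, Ddx58, Ifih1, Zbp1, Ifit3, Oas3, Oasl1, Oasl2, Mx1, Mx2, Bst2, Usp18, Dtx3l and Parp9, by 0.14 to 1.02 log2. Mx1, at 4.28 to 5.81 FPKM in tKO and 2.07 to 2.73 in dKO, was higher by 1.02 ± 0.142 (edgeR adjusted p = 7.02e-09). Oasl1 was higher by 0.62 ± 0.048 (3.04e-13), Ifit3 by 0.47 ± 0.0573 (2.37e-06) and Oasl2 by 0.40 ± 0.0565 (1.06e-08).

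The 5 members lower in tKO than in dKO were Ifi208, Ifi204, Ifi203, Oas1a and Irf1. Their share of the 38 tested was not above the 15.2% of all genes called lower, and the 3 Ifi genes are neighbours in 1 cluster. Ifi204 was lower by −1.06 ± 0.134 log2 (edgeR adjusted p = 4.05e-10), Ifi203 by −0.87 ± 0.138 (2.84e-07) and Ifi208 by −2.36 ± 0.326 (5.84e-09). The 4 members of the Ifi200 cluster together summed to 5.32 to 6.72 FPKM in tKO and 12.7 to 13.3 FPKM in dKO, so that they moved opposite to Mx1, Ifit3 and the Oasl genes. Oas1a, lower by −0.42 ± 0.0733 (2.67e-06), and Irf1, lower by −0.27 ± 0.0593 (0.000154), did so too. Members that showed no called difference included Isg15 (0.05 ± 0.0457, edgeR adjusted p = 0.414), Rsad2 (0.01 ± 0.0775, 0.939) and Stat2 (−0.05 ± 0.0443, 0.477). With the liver dispersion, only Mx1, Ifi203, Ifi204 and Ifi208 kept a call. Without single libraries 12 to 15 members were higher and 5 lower, and the calls of Dtx3l and Parp9 were lost without dKO 6, of Zbp1 without tKO 9, and of Mx2 without dKO 5 or tKO 7.

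Markers of other liver cells moved between the same hepatocyte groups. In such libraries, more cells of a type and more RNA per cell cannot be told apart. The 10 liver endothelium markers summed to 25.0 to 26.4 FPKM in tKO, 42.0 to 46.9 in dKO and 6.25 to 6.82 in WT. All 10 rose in dKO and 9 of 10 in tKO, by up to 3.21 log2 for Pecam1 in dKO, and 8 of 10 were lower in tKO than in dKO. Over all genes, 24.0% were called higher in dKO and 25.6% in tKO, and 15.2% lower in tKO than in dKO. The 10 stellate cell markers summed to 11.2 to 12.3 FPKM in tKO, 20.3 to 21.7 in dKO and 1.74 to 2.17 in WT, and Lrat, which defines quiescent stellate cells, averaged 0.013, 0.013 and 0. Of 6 stellate markers tested, 5 rose in dKO and 5 in tKO, with medians of 4.08 and 2.93 log2 and up to 6.02 for Dcn in dKO, and 4 were lower in tKO than in dKO. At such WT levels a marker may have passed the filter only through the knockouts, and then had to differ. The order dKO, tKO, WT was also that of the Ifi200 genes, and the part of these cells in the members' rise was not tested.

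The Kupffer cell and macrophage list, with 12 of 13 markers in the files, summed to 233 to 256 FPKM in tKO, 201 to 207 in dKO and 84.2 to 96.8 in WT. Cd68, at 210 FPKM in tKO, 167 in dKO and 83.2 in WT on average, and Mpeg1, at 27.5, 28.3 and 6.48, made up nearly all of it. All 6 markers tested rose in dKO, with a median of 3.59 log2 and up to 6.76 for C1qc, and in tKO, with a median of 2.71 and up to 5.72 for C1qc. Of all genes, 24.0% and 25.6% were called higher. C1qc was at 0 in every WT library, so it passed the filter only through the knockouts and had to differ. Other tested markers low in WT, such as C1qa at 0.07 FPKM, may have passed in the same way. The count and medians of this list then rest in part on genes that had to differ. In tKO against dKO, Cd68 was higher, Cd5l and C1qa were lower and the other 3 were not called, with a median of −0.71 log2. The markers that define Kupffer cells had low levels and were not tested: Clec4f averaged 0.36, 0.43 and 0.03 FPKM in tKO, dKO and WT, Timd4 0.13, 0.32 and 0.02, and Vsig4 0.13, 0.13 and 0. C1qa averaged 0.65, 1.44 and 0.07 FPKM. Summed T and NK cell markers reached 0.39, 0.15 and 0.15 FPKM at most in tKO, dKO and WT, those of neutrophils 0.93, 1.20 and 0.35, and those of dendritic cells without Bst2, which is a member, 0.30, 0.31 and 0.20. Hepatocyte markers summed to 27129 to 28259 FPKM in tKO, 31105 to 31685 in dKO and 35174 to 35954 in WT.

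**Figure D4:**
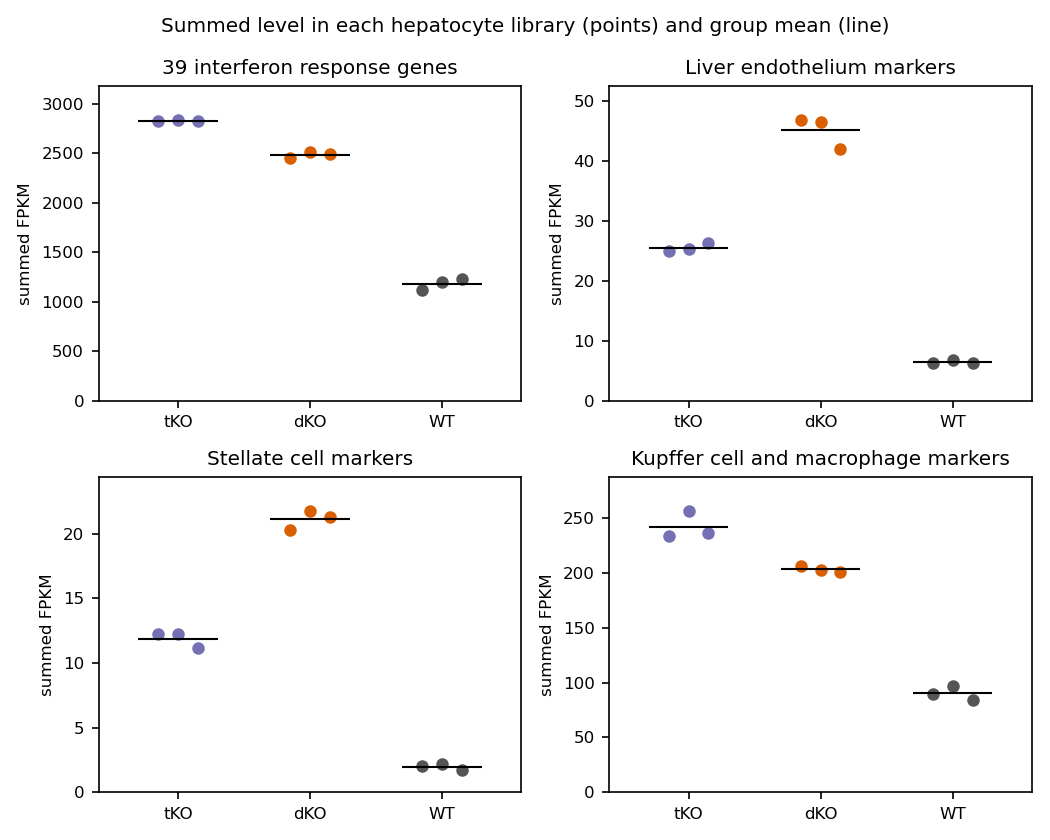
Summed FPKM (y axes, from 0) of the 39 interferon response genes and of 3 marker lists in each hepatocyte library (points), with the group mean (line), for tKO, dKO and WT (x axes). The summed interferon response genes are highest in tKO, as is the macrophage sum, which is mostly Cd68, and the endothelial and stellate cell sums are highest in dKO.

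Other parts of the pathway were set beside the same backgrounds, 44.0% of all genes called in dKO and 47.4% in tKO. Of 11 genes for receptor chains and signalling from them, 9 were higher and 1 lower in dKO, and 8 and 1 in tKO. Of the receptor chains, Ifnar2 rose by 0.39 and 0.32 log2 in dKO and tKO while Ifnar1 fell by −0.19 and −0.20. Ifnlr1, the receptor chain for interferon lambda, rose by 3.47 and 4.66 log2 but averaged only 0.31, 0.13 and 0.01 FPKM in tKO, dKO and WT. At that WT level it can have passed the filter only through the knockouts, and so had to differ.

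Among 16 tested genes upstream of interferon, 7 were higher and 2 lower in dKO, and 7 and 2 in tKO. The share of all genes higher was 24.0% and 25.6%. In either direction 9 of 16 were called in each, not far above the 44.0% and 47.4% of all genes. The kinase Ikbke rose by 0.82 and 0.68 log2 and the RNA sensor Tlr3 by 0.60 and 0.77, while Mavs, the mitochondrial adaptor of RIG-I and MDA5, fell by −0.70 and −0.35. Sting1, the adaptor for cytosolic DNA, averaged 0.48, 0.97 and 0.20 FPKM in tKO, dKO and WT. Of 12 negative regulators, 6 were higher and 1 lower in dKO and 7 and 1 in tKO, where 24.0% and 25.6% of all genes were higher. With 12 genes these shares are coarse. Among them rose Tnfaip3 by 1.35 and 1.22, Socs1 by 1.33 and 0.85, Socs3 by 0.90 and 0.52 and the nuclease Trex1 by 0.69 and 0.53. Socs1 and Socs3, which inhibit Janus kinases, were lower in tKO than in dKO by −0.48 and −0.38 log2. Of 39 tested genes in a further list of interferon-induced genes, 35 were higher and 1 lower in dKO, and 35 and 0 in tKO, with medians of 0.84 and 1.03. Ifi202b, at 0 in every dKO and WT library, passed the filter only through tKO. It had to differ there and could not differ in dKO. Further genes of this list that are low in WT may have passed only through the knockouts too. Ifit3b, a near copy of Ifit3, rose by 2.79 and 3.44, Ly6e by 1.42 and 1.62, and Ifitm3, which averaged 1163, 1137 and 579 FPKM in tKO, dKO and WT, by 0.98 and 0.97 in tKO and dKO.

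The interferons themselves were hardly detected. Of 21 ligand genes searched in hepatocytes, 18 were not listed in any file and none was tested. Ifnb1 had 1 count in tKO 9, 1 in dKO 5 and none in WT. Ifnk had 1 count in tKO, 4 in dKO and 6 in WT, each over 3 libraries, and Ifnz had 1.79 expected counts in tKO 8. At this depth no difference between groups was detectable.

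In liver, the comparison addressed loss of Smsr in mice on the diet. Of 38 members tested, 0 were higher and 0 lower in libraries labelled SMSrKO by edgeR, against 0.120% and 0.114% (0.234% in all) of 15820 genes, and DESeq2 called 0 as well. At an unadjusted p under 0.05 only Irf9 was found, against 13.1% of all genes. Log2 fold changes ran from −0.55 for Ifi204 to 0.24 for Irf9, 24 below 0 and 14 above, with a median of −0.06 against −0.01 over all genes. Values of SMSrKO and WT libraries overlapped for every member, where 2.47% of genes lay wholly above WT and 5.91% wholly below. Ifi208, at 4 to 36 counts in SMSrKO and 3 to 8 in WT, was below the filter.

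Irf9 had 23.2, 17.6, 19.0 and 21.3 TPM in SMSrKO, against 15.6, 18.4, 18.3 and 19.3 TPM in WT, a log2 fold change of 0.24 ± 0.103 (edgeR adjusted p = 0.362, unadjusted 0.0417). Bst2, again the highest member, had 334.3, 312.5, 275.4 and 354.4 TPM in SMSrKO and 365.4, 342.0, 386.9 and 415.3 in WT, a change of −0.19 ± 0.108 (adjusted p = 0.485). Ifi27, next by level, had 126.3, 100.9, 100.3 and 101.7 TPM in SMSrKO and 94.0, 105.5, 132.7 and 159.4 in WT. Ifi204 had 6.14, 4.09, 7.59 and 12.2 TPM in SMSrKO and 9.01, 12.3, 12.4 and 11.5 in WT, with −0.55 ± 0.263 (adjusted p = 0.412). Oas1a, with −0.54 ± 0.260 (0.407), and Ifi35, with −0.25 ± 0.121 (0.415), were likewise not called.

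Single liver libraries stood apart for many members. WT 1 was the lowest library for 16 of 39 members, among them Ifit1, at 5.04 TPM against 8.41 to 21.2 in the other WT libraries, and Rsad2, at 2.11 TPM against 7.38 to 15.1. In SMSrKO these genes had 9.93 to 16.7 and 8.41 to 10.3 TPM. SMSrKO 8 was the highest library for 15 members. Irf7 had 33.1, 20.3, 21.2 and 58.0 TPM in SMSrKO and 26.4, 27.7, 42.1 and 43.1 in WT, and Oas3 had 2.18, 1.18, 1.15 and 4.63 in SMSrKO and 1.56, 2.35, 2.38 and 3.17 in WT. SMSrKO 6 and SMSrKO 7 were lowest for 13 and 7 members, and WT 3 and WT 4 highest for 11 and 8. The spread was uneven among members: the coefficient of variation was 3.11% for Dhx58 and 62.3% for Rsad2 in WT, and 4.38% for Eif2ak2 and 71.5% for Oas3 in SMSrKO. The change of Oas3, 0.01 log2 over all libraries, was −0.56 without SMSrKO 8 and 0.23 without SMSrKO 7. Without WT 1, or without any other single library, 0 members were called.

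**Figure D5:**
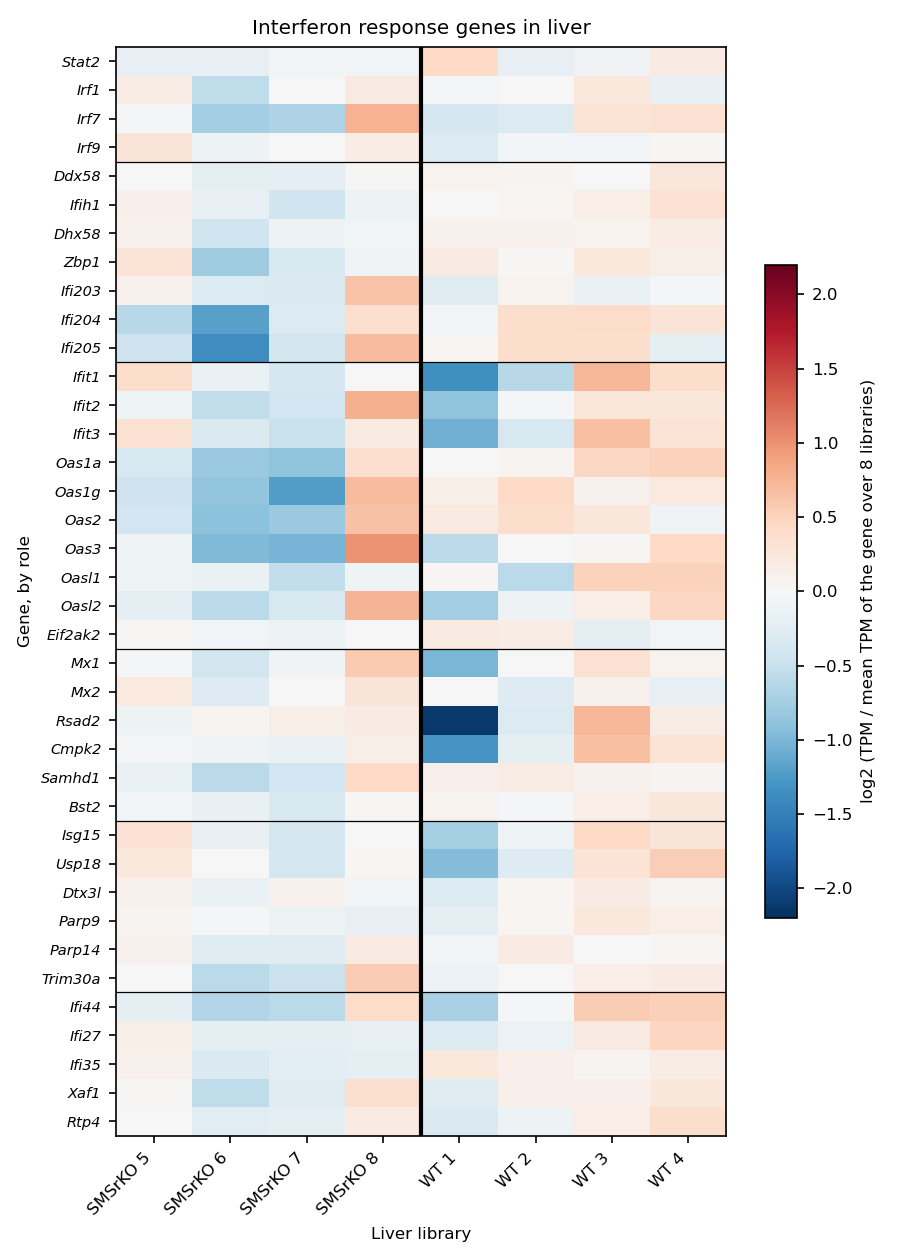
Level of 38 members (y axis, by role) in each liver library (x axis) as log2 of TPM over the mean of the gene across 8 libraries (colour). WT 1 is low for Ifit1, Ifit3, Rsad2, Cmpk2 and Usp18, and SMSrKO 8 is high for Irf7, Oas2, Oas3 and Oasl2.

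Immune cell markers varied over the same liver libraries. The 13 Kupffer cell and macrophage markers summed to 1351, 885, 884 and 2200 TPM in SMSrKO 5 to 8 and to 1784, 1666, 1632 and 1512 TPM in WT 1 to 4, so that SMSrKO 8 stood highest. All 13 had negative fold changes and 0 were called. Neutrophil markers summed to 11.9, 9.76, 11.4 and 84.0 TPM in SMSrKO and 114, 39.9, 38.4 and 65.5 in WT. The part of these cells in the members' levels was not tested. Of the rest of the pathway, edgeR called Traf3, an adaptor upstream of interferon, which averaged 4.86 TPM in SMSrKO and 7.45 in WT and fell by 0.56 log2 (adjusted p = 0.0149). Traf3 was 1 of 19 tested genes upstream of interferon, where 0.234% of all genes were called. At an unadjusted edgeR p under 0.05, 1 of the 19 was higher and 4 were lower. Called were 0 of 11 genes for receptor chains and signalling from them, 0 of 11 negative regulators and 0 of 43 further interferon-induced genes. In these 3 lists 2, 4 and 4 were lower and 0 higher at an unadjusted p under 0.05. Of all genes, 13.1% were below this p in either direction, and with so few genes the shares are coarse. Of the 21 ligand genes, Ifnk had 0 to 7 counts in SMSrKO and 4 to 8 in WT, Ifng 0 to 5 and 0 to 5, and the other 19 had 0 in every library, which allows up to 3 counts in each.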

How the data were processed

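RNA-seq tables deposited by the authors were used as given. Liver files hold counts and TPM per gene for 8 libraries, per the file headers, and the deposited TPM could be recomputed from counts and gene length. Hepatocyte files hold expected counts and FPKM per gene for 9 libraries, per the file headers, and 6.25% of the deposited expected counts were not whole. Per the submitters' processing notes, Trimmomatic 0.36, STAR 2.5.2b, Bowtie2 2.2.5 and DESeq2 1.30.1 were used with GRCm38 and mm10. The role of each was not given in the sources used here.

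Expected counts were rounded. Genes were filtered with filterByExpr (count minimum 10), scaled by TMM (trimmed mean of M values) and tested with the quasi-likelihood test of edgeR 4.0.16 in R 4.3.3, with Benjamini-Hochberg adjustment over 15820 liver and 11471 hepatocyte genes and a threshold of 0.05. The 9 hepatocyte libraries entered 1 fit, and the experiments were never compared. The fit was tested on simulated data. Depth ran from 24391627 to 47351126 counts in liver and from 9221488 to 9665309 in hepatocytes, and limits low genes such as Ifi208. Alternatives were DESeq2 1.42.0, limma 3.58.1 on log2 of TPM plus 1 with a mean TPM of at least 0.5, library totals alone, no filter, pairs of groups alone, the liver dispersion, and leaving out each library. The liver dispersion was a common value for all genes, used with edgeR's likelihood ratio test. Members and lists were chosen with earlier results of these data known. Full values are given, in each role, for the member with the highest WT level, the smallest p and the smallest change, and further members were named after their values were seen. Every member called between tKO and dKO is named. No source used here states whether counting used strand, and overlapping genes cannot be told apart. The values of 1 pathway gene are not reported here.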

Additional observations from a re-analysis of the deposited data

Results flagged for a closer look

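In SMSrKO liver, 1 library lay far from the other 3 for 2 members. Oasl1 was at 8.45 TPM in SMSrKO 7, against 11.04 to 11.46 TPM in the other SMSrKO libraries. Ifi27 was at 126 TPM in SMSrKO 5, against 100.3 to 101.7 TPM in the others. Single libraries that stand apart in this way are found by chance in about 1 in 20 groups. All 39 members were searched in both SMSrKO and WT liver, so several would be found by chance. The cause was not tested.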

How the results depend on the processing

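No paired analysis was possible because the groups compared share no replicate numbers. All 38 members stayed higher in dKO without any single library, and 37 to 38 in tKO. No liver member was called under any alternative run. Counts over all genes moved in liver: higher and lower in SMSrKO were 19 and 18, but 220 and 231 with DESeq2, 9 and 9 with limma on TPM, and 65 and 71 without a filter. Leaving out single libraries gave 4 to 42 higher (without WT 4 and without WT 1) and 6 to 67 lower (without SMSrKO 7 and without WT 1). With the liver dispersion, all genes higher and lower were 869 and 186 in dKO, 877 and 344 in tKO, and 110 and 216 in tKO against dKO, where 1 member was higher and 3 lower. DESeq2 gave 1086 genes higher in tKO than in dKO. The cause of these shifts was not tested.

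Liver changes near 0 turned in sign. Irf1 was −0.063 with limma, −0.059 with library totals alone and −0.0055 without a filter. Oas3 was −0.13 and −0.047 and Dtx3l −0.0037 and −0.026 with limma and library totals, and Cmpk2 −0.064 and −0.0041 with library totals and without a filter. Ifit3 was −0.056 with library totals. Leaving out single libraries gave −0.26 to 0.33 for Cmpk2, −0.025 to 0.12 for Dtx3l, −0.22 to 0.33 for Ifit3, −0.092 to 0.14 for Irf1, −0.19 to 0.17 for Isg15, −0.56 to 0.23 for Oas3, −0.14 to 0.0017 for Parp9 and −0.14 to 0.054 for Rtp4. In tKO against dKO, Xaf1 was 0.020 with library totals and 0.0018 without a filter, and leaving out single libraries gave −0.040 to 0.062 for Xaf1 and −0.039 to 0.048 for Rsad2.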

Other observations

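Ifi202b, an interferon-induced PYHIN gene that is not among the 39, lies between Ifi203 and Ifi205 at chr1:173962568-173982744 (GRCm38, minus strand). In hepatocytes it had 73, 77 and 74 counts in tKO, or 4.39, 4.68 and 4.44 FPKM, and 0 in every dKO and WT library. In liver it had 99, 62, 1 and 247 counts in SMSrKO 5 to 8, and 0, 0, 0 and 1 in WT 1 to 4, so that SMSrKO 7 stood with WT. It was not tested in liver, where it was below the filter.

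Neighbouring genes differed in other ways. Ifi207 rose by 4.55 log2 in dKO and 3.68 in tKO, and Ifi211 by 3.97 and 2.22, and both were lower in tKO than in dKO (−0.87 and −1.75 log2). Of the further interferon-induced genes, Gvin1 rose by 1.53 log2 in dKO and 2.53 in tKO and Ifi30 by 0.74 and 1.76. Both were higher in tKO than in dKO, by 0.99 and 1.03.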
